A study of Homo sapiens with 28 samples.

Results

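KMS11 is an established human multiple myeloma cell line, and the data here are its 7 arrays, set against 21 arrays of the myeloma lines U266, MM.1s and 8226/S. The arrays were chosen by line label alone, 7 of the 28 in all, and the rule uses no measured value. Total RNA of each line was hybridised to Affymetrix HG-U133 Plus 2.0 arrays at the same 7 labels. Those labels are 2 untreated cultures (Control 1 and Control 2), darinaparsin (DAR, an organic arsenical) for 6 and 24 h, and arsenic trioxide (ATO) for 6, 24 and 48 h. Arsenic trioxide was given at 2 µM to all lines. Darinaparsin was given at 3 µM to KMS11 and MM.1s, at 4 µM to U266 and at 2 µM to 8226/S. The study was built to follow the arsenic response, and the comparison of KMS11 with the other lines uses the same arrays across all labels. No label says that arrays of a line came from separate cultures beyond the treatment and control number, so the spread may be technical in part, and each line is a single line of its kind.

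Myeloma arises from plasma cells, the end stage of B cells, whose task is to secrete antibody. In a known subset of the disease the translocation t(4;14) joins the immunoglobulin heavy chain locus to the region of FGFR3, a receptor tyrosine kinase, and NSD2, a methyltransferase that places dimethyl marks on lysine 36 of histone H3. Other subsets carry translocations to MAF, a transcription factor, or to the D-type cyclin genes. KMS11 is a widely used model of the t(4;14) subset, and is also known for a rearrangement at MAF.

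Signals are GCOS intensities on a linear scale, and differences are log2 differences after 29 was added to each signal, so that 1 unit is about 2-fold for bright genes and an understatement for dim ones. Each difference is KMS11 minus the mean of the 3 other lines at the same label, with its standard error (SE) from limma over the 7 labels. A gene was called where limma's Benjamini-Hochberg adjusted p was under 0.05, and a gene is said to be apart where KMS11 differed in 1 direction from each of the other lines at that level. Of 14863 autosomal genes tested, 6900 (46.4%) were called, 3365 (22.6%) of them higher in KMS11 and 3535 (23.8%) lower. Genes apart numbered 884 (5.95%) higher and 891 (5.99%) lower. By the same rule U266 had 1897 genes higher and 1568 lower, 8226/S 1581 and 1471, and MM.1s 1000 and 852, so the number of genes apart in KMS11 was of the order found for MM.1s and below that of U266 and 8226/S. Among KMS11's genes apart, 186 higher and 184 lower differed by at least 1 log2 unit from each of the 3 other lines. Further, 571 (3.84%) higher and 504 (3.39%) lower kept their sign in all 21 matched comparisons. These p-values rest on the spread between labels within lines, not between cell lines of a kind. With line means as the unit, limma called 0 genes after adjustment, with 411 (2.77%) at an unadjusted p under 0.05 and FGFR3 at the smallest adjusted p, 0.121. An exact permutation test over 4 line means cannot go below 0.25.

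**Figure D1:**
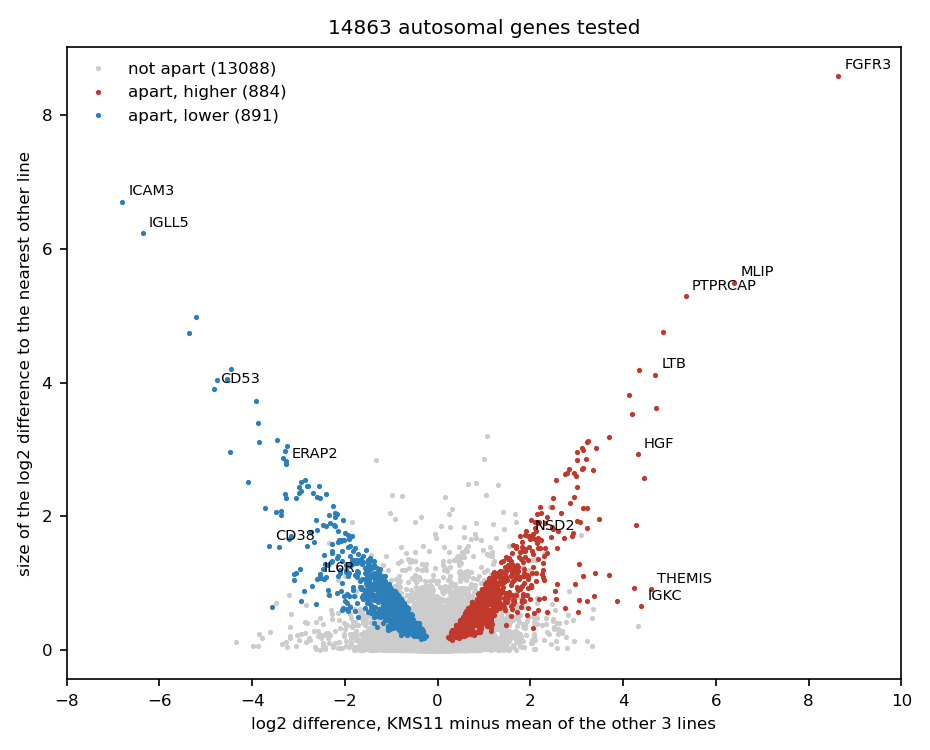
The log2 difference of KMS11 from the mean of the 3 other lines (x axis) is plotted against the smallest of the 3 absolute differences from single lines (y axis, log2) for 14863 autosomal genes, with genes apart in colour. FGFR3 at 8.64 and ICAM3 at -6.81 lie at the ends among the genes apart.

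FGFR3 and NSD2 marked KMS11. The FGFR3 signal was 13092 at its lowest, 18591 at the median and 23396 at its highest over the 7 KMS11 arrays. No array of the other lines went above 41.9, and their medians were 17.7 in U266, 16.1 in MM.1s and 17.2 in 8226/S. The groups did not come near each other: the log2 difference was 8.64 (SE 0.14, limma adjusted p = 2.43e-25), and over the 7 labels it stayed between 8.09 and 9.15. A second, dimmer FGFR3 probe set had a median of 1968 in KMS11 and 89.3, 84.7 and 106 in U266, MM.1s and 8226/S. NSD2 ran from 3608 to 10533 in KMS11 with a median of 4420. Its medians were 1178 in U266, 1189 in MM.1s and 1606 in 8226/S, and the highest array of the other lines, an MM.1s array at 2855, was below the lowest of KMS11. The difference was 1.96 (SE 0.17, limma adjusted p = 5.87e-10), and all 6 NSD2 probe sets were higher in KMS11. FGFR3 was thus near background in the other lines, while NSD2 was expressed in all 4.

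**Figure D2:**
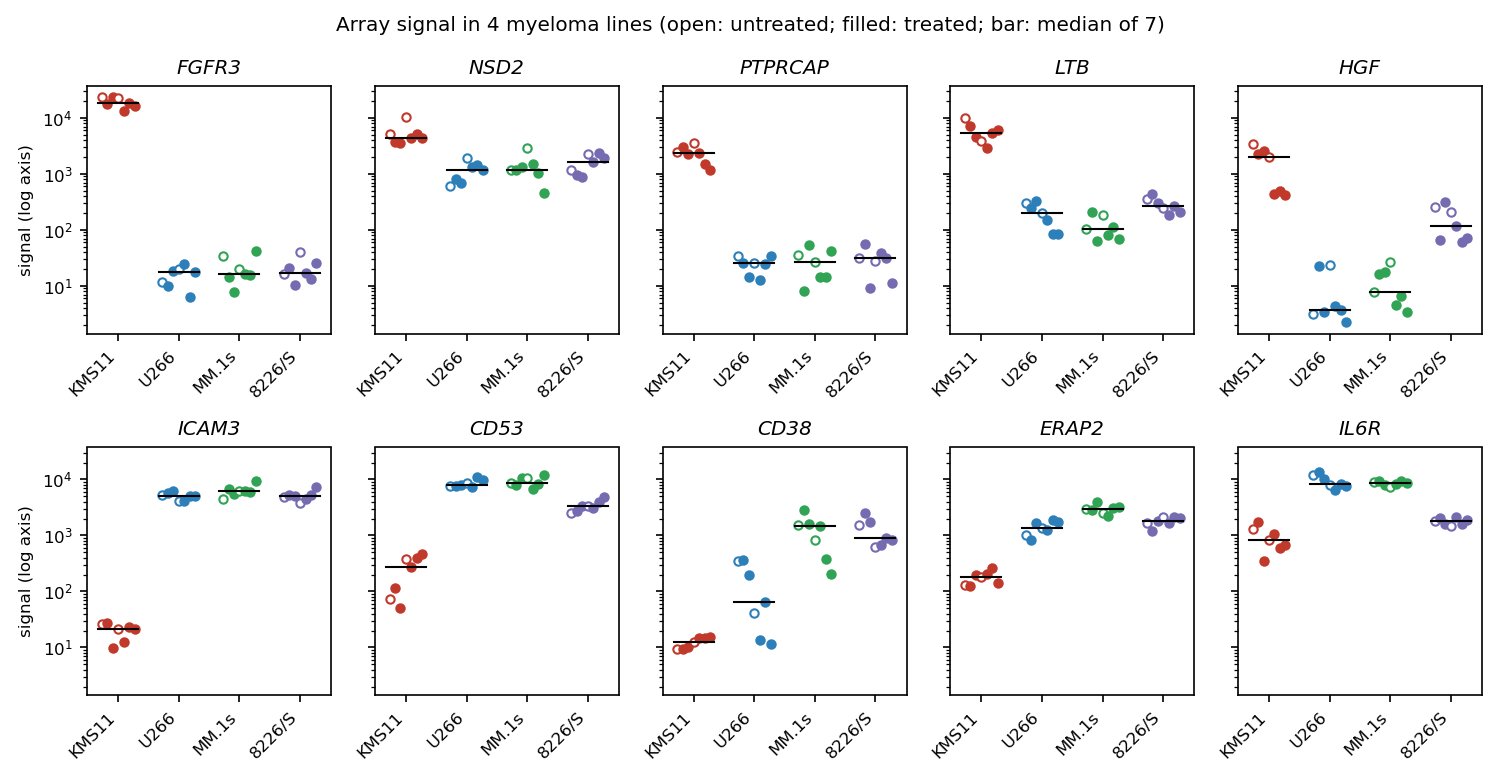
GCOS signals (log scale) of selected genes are plotted for each of the 28 arrays, by line. For FGFR3 the 7 KMS11 arrays lie between 13092 and 23396 and no other array exceeds 41.9, while ICAM3 in KMS11 does not exceed 26.8.

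The neighbours of NSD2 and FGFR3 on the short arm of chromosome 4 did not move together. Of 24 tested neighbours in band 4p16.3, not counting these genes themselves, 10 (41.7%) were higher and 9 (37.5%) lower in KMS11, against 22.6% and 23.8% over all genes, with a median difference of 0.05, against -0.06 over all genes tested. Of the 24, 3 were apart, where 11.9% of all genes tested were apart in either direction. NICOL1 was higher by 1.12 (SE 0.10), at 2038 in the median KMS11 array and 871, 1093 and 974 in U266, MM.1s and 8226/S. IDUA, which encodes the lysosomal enzyme alpha-L-iduronidase, was lower (-1.48, SE 0.19). SLBP, which binds the stem-loop of histone mRNA, was lower by a small amount (-0.31, SE 0.09, limma adjusted p = 0.00424), and it was lower in 18 of 21 matched comparisons. Its call was lost after median centring (-0.25, limma adjusted p = 0.0608) and in the untreated arrays alone (-0.03). A list of 14 genes known to be high in t(4;14) myeloma had 7 (50.0%) called higher and 1 lower, against 22.6% and 23.8% over all genes, with a median of 0.46. Apart among them beside FGFR3 and NSD2 were JAM3, a junctional adhesion molecule (1.59, SE 0.23), and AUTS2 (2.54, SE 0.15), for which 1 of 3 probe sets was higher.

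None of the other myeloma drivers described here was apart in KMS11. MAF had a median signal of 3435 in KMS11 (range 1292 to 6740). U266 had a median of 72.6, MM.1s of 11500 and 8226/S of 10886. KMS11 was thus above U266 by 4.09 and below MM.1s and 8226/S by log2 differences of -1.71 and -1.34, each called by limma (largest adjusted p = 0.000383), while its difference from the mean of the 3 was not (0.35, SE 0.24, adjusted p = 0.25). Of 14 MAF target genes, 3 were higher and 6 (42.9%) lower, against 22.6% and 23.8% over all genes. ITGB7, an integrin subunit and known MAF target, followed a like order, with a median of 14661 in KMS11, 2328 in U266, 32819 in MM.1s and 15060 in 8226/S. The difference of KMS11 from 8226/S was -0.03 and not called. Cyclin D1 (CCND1) was high in U266 alone, with a median of 4685 there and 320 in KMS11, 296 in MM.1s and 385 in 8226/S. CCND2 was bright in every line, 10927 at the median in KMS11, with a difference of -0.17 (SE 0.10, limma adjusted p = 0.173). CDKN2A, which encodes the p16 inhibitor of CDK4 and CDK6 and the ARF protein, had a median of 9342 in KMS11, 2477 in U266, 230 in MM.1s and 6894 in 8226/S. It was higher in KMS11 than in U266 (1.91) and MM.1s (5.05), but the difference from 8226/S, 0.24, was not called (adjusted p = 0.259), although KMS11 was higher in 21 of 21 matched comparisons. TRAF3, a brake on the non-canonical NF-kB pathway, was near background in 8226/S by its brightest probe set, where its highest signal was 34.0, while KMS11 had a median of 670. A second TRAF3 probe set had medians of 138 in 8226/S, 263 in KMS11, 404 in MM.1s and 752 in U266. By that probe set the difference of KMS11 from the mean of the others was -0.34.

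Genes apart with 1 sign in 21 matched comparisons were ranked by their difference. Among the 12 largest positive ones, several are known from lymphocytes other than plasma cells. PTPRCAP encodes a lymphocyte membrane protein that binds the phosphatase CD45. Its signal in KMS11 was 1197 to 3498, with a median of 2359, and the highest array of any other line was 56.3. The difference was 5.35 (SE 0.20, limma adjusted p = 3.11e-17), with values of 4.44 to 5.99 over the labels. LTB, or lymphotoxin beta, is a membrane-bound ligand of the TNF family. It lay between 2902 and 9898 in KMS11 and at medians of 197, 104 and 273 in U266, MM.1s and 8226/S, a difference of 4.69 (SE 0.18, limma adjusted p = 9.51e-17). No array of another line passed 439. A second LTB probe set differed by -0.42, so the difference rests on the brighter one. THEMIS, which encodes a signalling protein of developing T cells, was 2657 to 5566 in KMS11 and at most 56.0 in U266 and MM.1s. In 8226/S it was 1259 to 2879, so KMS11 was above that line by 0.91 and above U266 by 6.44.

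T cell genes that define the lineage did not rise as a group with these. CD7 was higher, with a median of 656 in KMS11 and 43.2, 36.9 and 111 in U266, MM.1s and 8226/S (difference 3.00, SE 0.22), and CD3E was higher by 1.24 (SE 0.24). Of 9 T and NK cell markers tested, 2 (22.2%) were higher and 1 (11.1%) lower, against 22.6% and 23.8% over all genes. Before the filter on low signals, 5 of 14 such markers were below the array median on all 7 KMS11 arrays, namely CD3D, CD3G, NKG7, GNLY and GZMA. The summed signal of the 14 ranged from 1038 to 2798 in KMS11, 626 to 2239 in U266, 597 to 1932 in MM.1s and 901 to 1970 in 8226/S.

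HGF, the secreted ligand of the MET receptor and a known product of myeloma cells, was higher in KMS11 as well. Its signal ran from 417 to 3371, with a median of 2036. In U266 and MM.1s no array passed 27.2, and 8226/S lay between 61.9 and 318. The difference was 4.31 (SE 0.27, limma adjusted p = 7.64e-13), and all 5 HGF probe sets were higher. Within KMS11 the 3 ATO arrays stood apart at 417, 432 and 485, against 2036 to 3371 on the other 4 arrays. Also among the 12 ranked largest were the long noncoding RNA LINC01503 (4.87, SE 0.14) and ANK3, which encodes the membrane adaptor ankyrin G (4.70, SE 0.22). The transcription factor gene BHLHE22 (4.46, SE 0.24), KIAA1549L (4.33, SE 0.34) and TRIM58 (4.28, SE 0.18) belonged to them too. LINC01503 was at 820 to 1368 in KMS11 and at most 18.2 elsewhere. A probe set named MLIP on the platform differed by 6.40 (SE 0.26). It is of the kind marked as open to cross-hybridisation and is the only one tested under that symbol, so its gene is uncertain.

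ICAM3 was the clearest loss. This adhesion molecule of leukocytes, a ligand of the integrin LFA-1, had a signal of 9.79 to 26.8 in KMS11. The lowest array of any other line was 3833, and the medians were 5113 in U266, 6094 in MM.1s and 5012 in 8226/S. The difference was -6.81 (SE 0.10, limma adjusted p = 2.97e-26), and over the 7 labels it ranged from -7.17 to -6.48. ICAM3 is read by a single probe set here. CD53, a tetraspanin of leukocytes, was 50.6 to 458 in KMS11 against 2494 to 12099 in the other lines (-4.82, SE 0.19). IRAG2, also known as LRMP, a lymphoid protein of the endoplasmic reticulum, was 7.18 to 52.6 against a lowest value of 601 elsewhere (-4.75, SE 0.17). The transcriptional repressor BHLHE41 (-4.54, SE 0.19) and the chemokine receptor CCR2 (-4.48, SE 0.34) were lower too. BHLHE41 had a median of 148 in KMS11 and 3946, 2793 and 1894 in U266, MM.1s and 8226/S. NLRP11, a member of the NOD-like receptor family, had a median of 86.0 in KMS11 and 3262, 618 and 3009 in the others (-4.08, SE 0.21). PPDPF (-3.87, SE 0.12) and FAAP20, a component of the Fanconi anaemia core complex (-3.91, SE 0.18; 4 of 6 probe sets lower), completed the 12 largest negative differences together with 4 immunoglobulin lambda probe sets.

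The light chain genes divided the lines. Immunoglobulin kappa (IGKC) was 19856 to 27294 in KMS11 and 9929 to 21150 in U266. In MM.1s it was 12.4 to 130, and in 8226/S 604 to 2473. By this brightest IGKC probe set KMS11 exceeded MM.1s by 8.20 and 8226/S by 4.31, but U266 by only 0.66 (limma adjusted p = 0.0351). Another IGKC probe set had medians of 2741 in KMS11, 581 in U266, 181 in MM.1s and 1061 in 8226/S. By a dimmer probe set 8226/S, at 565, was above KMS11, at 82.7, and U266 was at 23.8. The place of U266 and 8226/S relative to KMS11 thus depended on the kappa probe set. Immunoglobulin lambda genes were lower in KMS11. IGLC1 was 478 to 4077 in KMS11, with a median of 1339, and medians were 26815 in U266, 38136 in MM.1s and 35067 in 8226/S (difference -4.45, SE 0.19, limma adjusted p = 6.90e-16). IGLL5 had a median of 207 in KMS11 against 19421, 12192 and 12838 (-6.36, SE 0.28), IGLL3P differed by -5.36 (SE 0.19) and IGLV1-44 by -5.21 (SE 0.19). Probe sets for immunoglobulin genes share sequence and cross-hybridise: 3 of 5 IGKC probe sets and 4 of 5 IGLC1 probe sets went the way of the brightest. So the lambda values cannot be assigned to single genes. Of 10 immunoglobulin genes tested, 1 (10%) was higher and 4 (40%) lower, against 22.6% and 23.8% over all genes.

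Genes of plasma cell identity were expressed in KMS11, with CD38 as the exception. IRF4, PRDM1, XBP1, SDC1 (CD138), TNFRSF17 (BCMA) and MZB1 were above the array median on all 7 arrays, with medians of 5959, 3024, 9080, 4289, 7288 and 3666. CD38, a surface enzyme and the target of daratumumab, was 9.30 to 15.7 in KMS11 and below the array median on all 7 arrays. It was 208 to 2853 in MM.1s and 614 to 2536 in 8226/S, and U266 reached down to 11.7 with a median of 64.5. The difference was -3.64 (SE 0.30, limma adjusted p = 2.60e-10), with KMS11 lower in 19 of 21 matched comparisons, and it rests on 1 probe set. Over 23 plasma cell genes, 4 (17.4%) were higher and 5 (21.7%) lower, against 22.6% and 23.8% over all genes, with a median of 0.10. Apart were CD79B (1.25, SE 0.15), a chain of the B cell receptor, and SEC11C (0.91, SE 0.06), a subunit of the signal peptidase, both higher, and also CD38, CAV1 (-1.34, SE 0.18) and TENT5C (-1.48, SE 0.13), a poly(A) polymerase often lost in myeloma, all lower. With the mean of its 3 probe sets CD79B was not called (0.31). Of 18 B cell markers, 5 (27.8%) were higher and 3 (16.7%) lower. The transcription factor gene SPIB was among the higher (2.01, SE 0.24), with a median of 346 in KMS11 and 223, 35.5 and 104 in U266, MM.1s and 8226/S, and so was CD24 (0.98, SE 0.24), which was not called in the untreated arrays alone (0.06). The B cell genes MS4A1 (CD20), CXCR5 and BLK were below the array median on all KMS11 arrays.

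Other surface and adhesion genes went both ways. Of 33 adhesion and homing genes 12 were higher and 8 lower, and of 27 genes for surface proteins used as drug targets or diagnostic markers 7 (25.9%) were higher and 12 (44.4%) lower, against 22.6% and 23.8% over all genes. CD81, a tetraspanin, had a median of 5254 in KMS11, 1469 in U266, 17.8 in MM.1s and 4165 in 8226/S (3.06, SE 0.20). CD58, the ligand of the T and NK cell receptor CD2, was lower, with a median of 421 against 3864, 2858 and 551 (-2.06, SE 0.13). CD86, a costimulatory ligand of CD28, was lower (-1.59, SE 0.15), and the complement regulator CD55 was higher (1.78, SE 0.15). The tetraspanin CD63 was higher by 0.70 (SE 0.08). Among 25 genes of antigen presentation, 5 (20%) were higher and 11 (44.0%) lower, with a median of -0.11. The class I genes HLA-F (0.75, SE 0.09) and HLA-G (0.50, SE 0.12) were apart and higher, while their probe sets may take up signal from other class I genes. ERAP2, a peptidase that trims peptides for class I molecules, had signals of 123 to 257 in KMS11 and of 822 to 3991 in the other lines, with no overlap (-3.28, SE 0.11, limma adjusted p = 3.49e-18). PSMB9, an immunoproteasome subunit, was lower (-0.54, SE 0.14), but the difference was -0.01 and not called in Control 1 and the DAR arrays alone, nor in the untreated arrays alone (-0.45).

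Cytokine and receptor genes showed a similar mix. Of 40 tested, 9 (22.5%) were higher and 8 (20%) lower, against 22.6% and 23.8% over all genes. IL6R, the binding chain of the receptor for interleukin-6, a growth factor of myeloma cells, was 347 to 1715 in KMS11, with a median of 828. Its medians were 8440 in U266, 8577 in MM.1s and 1784 in 8226/S (difference -2.59, SE 0.15, limma adjusted p = 1.60e-13). The signalling chain IL6ST (gp130) was higher by 0.64 (SE 0.10), so the 2 chains of the receptor went opposite ways. IL4R was higher (1.88, SE 0.24), with a median of 487 against 116, 185 and 60.6, and so was TGFB1 (1.31, SE 0.18).

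Interferon response genes were lower in KMS11. Type I interferons induce many of their target genes through a DNA element near the gene start, the interferon-stimulated response element (ISRE). Of 31 interferon response genes tested, 21 (67.7%) were called lower and 10 were not called, against 23.8% lower over all genes. Limma called 0 of the 31 higher, and 0 reached an unadjusted p under 0.05 in that direction. The median difference was -0.72, against -0.06 over all genes. It was -1.60 against U266, -0.71 against MM.1s and -0.66 against 8226/S, and it was below 0 at each of the 7 labels, from -1.30 to -0.48. Without U266, 19 of the 31 were still called lower and 1 higher. The genes apart were ISG15, OAS1, OAS3, IFI35, IFIH1, BST2 and XAF1. The list median was thus below 0 against each line, and farthest below U266.

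The values of single genes show how far this went. ISG15, a ubiquitin-like protein that is conjugated to others after interferon, was 55.8 to 347 in KMS11 with a median of 145. It was 395 to 3365 in U266, 233 to 805 in MM.1s and 722 to 10569 in 8226/S (difference -2.66, SE 0.29, limma adjusted p = 3.10e-08). The value of 10569 came from the DAR 24 h array of 8226/S, and no other array of that line passed 1521. The same array was the highest of 8226/S for OAS1, OAS3, IFI35, IFIH1 and XAF1, but not for BST2. The lowest list median, -1.30, was at that label. The KMS11 arrays overlapped those of MM.1s in range but were lower in 21 of 21 matched comparisons. OAS3, which makes the 2-5A second messenger of RNase L, was 12.6 to 153 in KMS11 and 2908 to 6385 in U266 (-3.05, SE 0.23). Its medians were 394 in MM.1s and 179 in 8226/S, and the ranges of KMS11 and 8226/S overlapped. OAS1 had a median of 169 in KMS11 and 6685, 602 and 356 in U266, MM.1s and 8226/S (-2.53, SE 0.17). The RNA sensor gene IFIH1 (MDA5) was lower by a difference of -1.14 (SE 0.15), IFI35 by -1.34 (SE 0.11) and XAF1 by -1.36 (SE 0.26). BST2 (tetherin), the target of another myeloma antibody, was bright in all lines and differed by -0.59 (SE 0.09).

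Promoter sequences of 4 of these genes are printed to show the shared element. They are the 250 bases before the RefSeq start, build GRCh38.p14, 5′ to 3′ on the strand of the gene, with capitals at each match on either strand to the core of the element, read here as GAAA, any 2 bases and GAAA. ISG15 lies at chr1:1013247-1013496 on the plus strand with 2 matches, OAS3 at chr12:112938224-112938473 on the plus strand with 2, IFIH1 at chr2:162318685-162318934 on the minus strand with 3, and BST2 at chr19:17405631-17405880 on the minus strand with 2. Matches that overlap merge into 1 run of capitals.
ISG15: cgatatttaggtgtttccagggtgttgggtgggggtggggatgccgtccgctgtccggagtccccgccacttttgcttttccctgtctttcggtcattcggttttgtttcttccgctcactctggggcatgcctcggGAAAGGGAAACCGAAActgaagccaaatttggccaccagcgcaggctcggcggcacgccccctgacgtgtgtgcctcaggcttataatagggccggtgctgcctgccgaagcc
OAS3: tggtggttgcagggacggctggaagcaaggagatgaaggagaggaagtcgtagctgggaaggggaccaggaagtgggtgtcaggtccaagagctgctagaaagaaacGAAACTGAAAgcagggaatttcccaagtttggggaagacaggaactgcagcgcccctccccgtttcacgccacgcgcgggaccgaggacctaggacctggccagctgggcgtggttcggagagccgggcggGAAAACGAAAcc
IFIH1: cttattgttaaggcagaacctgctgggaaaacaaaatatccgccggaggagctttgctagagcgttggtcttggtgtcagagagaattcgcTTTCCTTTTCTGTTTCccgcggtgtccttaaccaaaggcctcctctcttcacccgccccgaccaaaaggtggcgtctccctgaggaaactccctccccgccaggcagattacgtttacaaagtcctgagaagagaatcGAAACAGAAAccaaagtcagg
BST2: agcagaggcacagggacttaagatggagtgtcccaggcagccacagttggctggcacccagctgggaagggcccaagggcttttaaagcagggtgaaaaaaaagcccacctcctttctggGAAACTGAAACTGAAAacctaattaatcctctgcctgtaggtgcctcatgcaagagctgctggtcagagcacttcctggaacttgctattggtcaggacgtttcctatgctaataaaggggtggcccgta
Of 11802 tested genes with such a sequence, 275 (2.33%) held the letters. Among the interferon genes it was 15 of 24 (62.5%), made up of 12 of 16 called lower and 3 of 8 not called. OAS1, IFI35 and XAF1 had no match in this window. A match is a description of the letters, not a bound site.

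**Figure D3:**
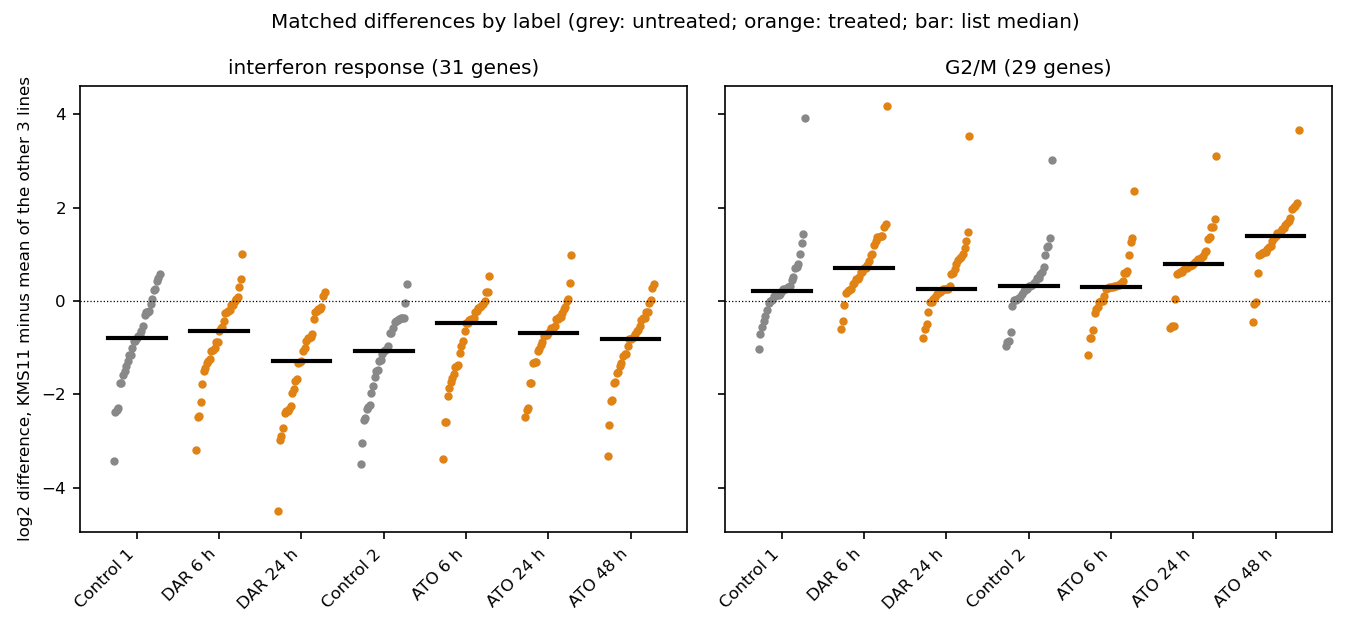
Log2 differences of KMS11 from the mean of the 3 other lines are plotted for each gene of the interferon (31 genes) and G2/M (29 genes) lists at each label, with a bar at the list median. The interferon medians lie between -1.30 and -0.48, and the G2/M medians rise above 0 at each label, from 0.21 to 1.39.

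Genes of late cell division were higher in KMS11. Of 29 G2/M genes tested, 21 (72.4%) were called higher and 3 lower, against 22.6% higher over all genes, with a median difference of 0.53. The list median was 0.61 against U266, 0.87 against MM.1s and smallest, 0.26, against 8226/S. UBE2C, the ubiquitin-conjugating enzyme of the anaphase-promoting complex, was 6307 to 12179 in KMS11. Medians were 288 in U266, 4438 in MM.1s and 687 in 8226/S, and 1 MM.1s array reached 6922 (difference 3.39, SE 0.28, limma adjusted p = 1.93e-10). MKI67, the Ki-67 antigen of cycling cells, had a median of 5068 in KMS11 and 1659, 2816 and 1181 in the others (1.40, SE 0.17). BUB1B, a spindle checkpoint kinase, was 7372 to 12174 and did not overlap any other line, whose highest array was 6094 (1.36, SE 0.17). CENPF (1.47, SE 0.15), NEK2 (1.15, SE 0.15), AURKA (0.91, SE 0.13), TTK (0.70, SE 0.17) and NUSAP1 (0.49, SE 0.13) were apart in the same direction. BUB1, the partner kinase of the checkpoint, was apart and lower (-0.74, SE 0.13).

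The G2/M difference varied with the label more than that of the interferon genes. In bulk RNA a larger share of dividing cells and more RNA per cell cannot be told apart. Its list median was 0.21 at Control 1 and 0.31 at Control 2. It was 0.71 and 0.26 at 6 and 24 h of DAR, and 0.30, 0.79 and 1.39 at 6, 24 and 48 h of ATO. These are differences between lines, so changes in the other lines enter too. From Control 2 to 48 h of ATO, MKI67 went from 2816 to 662 in MM.1s and from 5081 to 2771 in KMS11. BUB1B went from 3700 to 1034 in MM.1s and from 8238 to 8370 in KMS11. The remaining genes apart were lower in MM.1s as well. In KMS11, BUB1 was lower and AURKA, TTK, NUSAP1, CENPF, UBE2C and NEK2 were higher. In a fit to the untreated arrays alone 9 of the 29 were called higher and 4 lower. That fit, on fewer arrays, called 1830 of 14863 genes higher. Of the genes apart, TTK (0.27) and NUSAP1 (0.07) lost their calls in those arrays, NUSAP1 also in Control 1 and the DAR arrays alone (0.24), while UBE2C, MKI67, BUB1B, CENPF, NEK2 and AURKA kept theirs. A change of the difference with treatment was tested gene by gene, and no G2/M gene was among those called by limma.

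Genes of DNA replication did not follow. Of 25 G1/S genes, 5 were higher and 6 lower, with a median of -0.11. The replication licensing factor gene MCM6 was lower (-1.18, SE 0.13), with a median of 3974 in KMS11 and 11031, 6853 and 12152 in U266, MM.1s and 8226/S. PCNA, the sliding clamp of DNA polymerase (-0.80, SE 0.10), and RRM2, a subunit of ribonucleotide reductase (-0.54, SE 0.13), were lower too. CDC45, a part of the replicative helicase (0.90, SE 0.18), E2F1 (1.04, SE 0.14) and cyclin E2, CCNE2 (1.60, SE 0.17), were higher. The list of cyclins, INK4 inhibitors and RB genes, 20 tested, had 12 (60.0%) higher and 4 (20%) lower, against 22.6% and 23.8% over all genes.

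**Figure D4:**
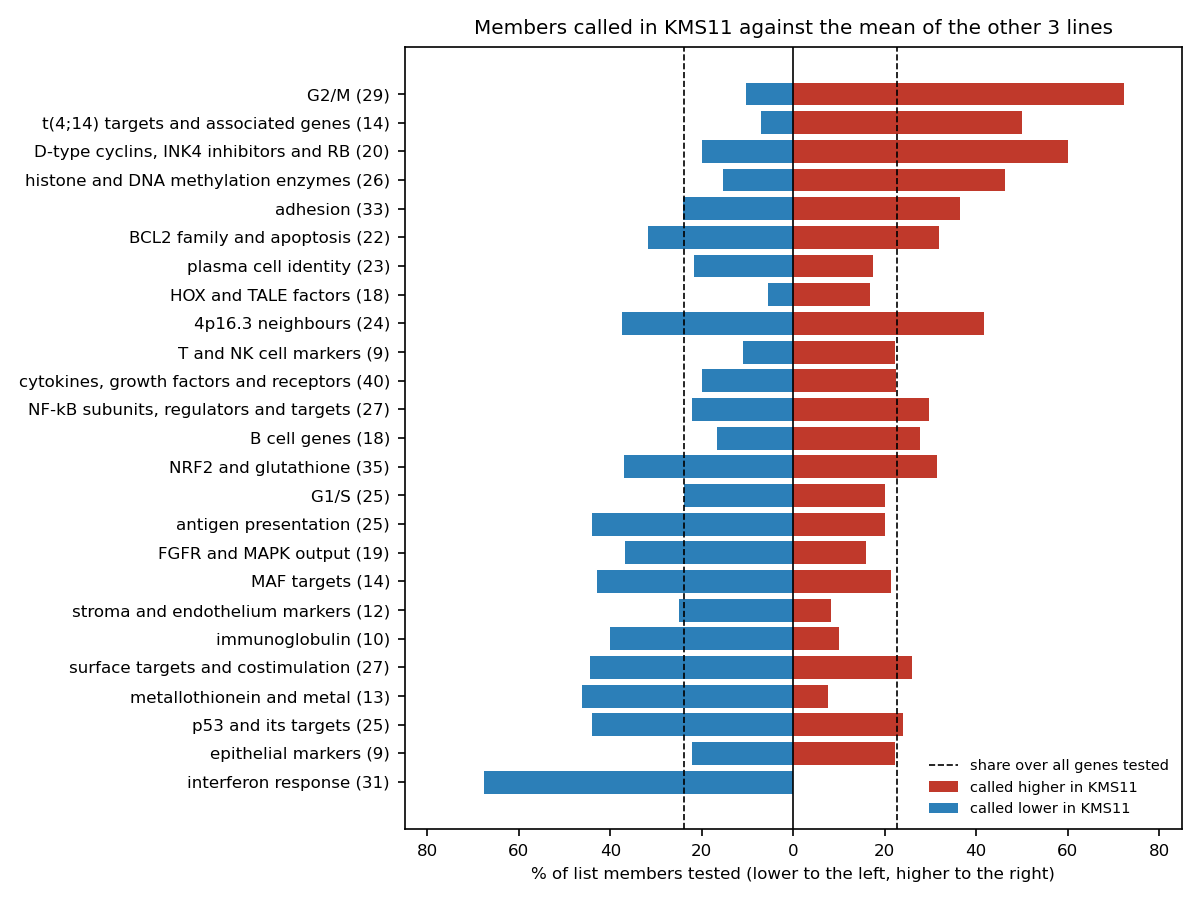
Shares of each gene list called higher or lower in KMS11 are drawn as bars in percent of its tested genes, for lists with at least 9 tested, with the shares over all genes (22.6% and 23.8%) as lines. The interferon list stands out on the lower side with 67.7% and the G2/M list on the higher side with 72.4%.

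Among 26 genes of histone and DNA methylation, which include NSD2, 12 (46.2%) were higher and 4 (15.4%) lower, against 22.6% and 23.8% over all genes, with a median of 0.21. DNMT3B, a de novo DNA methyltransferase, was 1093 to 1554 in KMS11 and at most 984 in any other line (1.38, SE 0.15). KMT2D, which methylates lysine 4 of histone H3, was higher by 0.92 (SE 0.09), and SETDB1, which methylates lysine 9, by 0.88 (SE 0.10). The Polycomb genes SUZ12 (0.65, SE 0.06) and EZH2 (0.43, SE 0.08) were higher by smaller amounts. Both other genes apart act on lysine 36 like NSD2, and both were lower: NSD1 (-0.86, SE 0.19; not called in the untreated arrays alone) and SETD2 (-0.45, SE 0.09).

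FGF receptor genes and genes of their downstream output went both ways. FGF receptors signal through RAS and MAP kinases, which induce feedback genes such as the Sprouty, SPRED, DUSP and ETV genes. Of 19 genes of this list, 3 were higher and 7 (36.8%) lower, against 22.6% and 23.8% over all genes, with a median of -0.13. ETV5, an ETS transcription factor, had a median of 184 in KMS11 and 1090, 393 and 957 in U266, MM.1s and 8226/S (-1.98, SE 0.21). DUSP5, a phosphatase of ERK, was lower (-1.40, SE 0.17), as were SPRED2 (-1.08, SE 0.14) and the receptor gene FGFR1 (-0.80, SE 0.14). FGFR2 was higher, with a median of 764 in KMS11 against 57.7, 109 and 367 (2.27, SE 0.17). For FGFR2, 6 of 7 probe sets went the same way.

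Of 27 NF-kB target and pathway genes, 8 (29.6%) were higher and 6 (22.2%) lower, against 22.6% and 23.8% over all genes, with a median of -0.06. LTB was apart and higher, and TNIP1, an inhibitor of the pathway, was lower (-0.96, SE 0.10). The 250 bases before the LTB start are shown because LTB is a textbook NF-kB target, with capitals at its match on either strand to the kB letters GGG, any 2 bases and TTTCC, at chr6:31582426-31582675 on the minus strand of GRCh38.p14 (RefSeq).
LTB: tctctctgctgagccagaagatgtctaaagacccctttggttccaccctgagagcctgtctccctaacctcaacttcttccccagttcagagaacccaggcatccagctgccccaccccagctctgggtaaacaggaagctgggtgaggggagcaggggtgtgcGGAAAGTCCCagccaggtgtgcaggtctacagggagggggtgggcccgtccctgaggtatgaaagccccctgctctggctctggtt
These letters occur in 226 of the 11802 sequences (1.91%).

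Of 25 p53 pathway genes, 6 (24.0%) were higher and 11 (44.0%) lower, against 22.6% and 23.8% over all genes, with a median of -0.36. CDKN1A, the p21 inhibitor of cyclin-dependent kinases, had a median of 579 in KMS11 and 1510, 2635 and 900 in U266, MM.1s and 8226/S (-1.53, SE 0.24, limma adjusted p = 7.04e-06). The difference was -2.45 and -3.00 at the 2 controls, -1.29 and -2.25 at 6 and 24 h of DAR, and -0.27, -1.34 and -0.10 at 6, 24 and 48 h of ATO. The term for treatment, 1.61, was not called (limma adjusted p = 0.28). The damage recognition genes XPC (-1.18, SE 0.13) and DDB2 (-1.56, SE 0.15) were lower, and the death receptor gene FAS was higher (1.60, SE 0.19). Of 22 BCL2 family and apoptosis genes 7 were higher and 7 lower, with BCL2L11 (BIM, -0.81, SE 0.14) and CASP1 (-1.83, SE 0.23) apart and lower.

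Genes that handle arsenic and oxidants went both ways in KMS11. Arsenicals bind thiols, are exported as glutathione conjugates and induce metallothioneins and the NRF2 programme. Of 35 NRF2 and glutathione genes, 11 (31.4%) were higher and 13 (37.1%) lower, against 22.6% and 23.8% over all genes, with a median of -0.09. ABCC1 (MRP1), an exporter of glutathione conjugates, was higher without overlap. It was 2570 to 4165 in KMS11 and at most 1526 in any other line (1.61, SE 0.10, limma adjusted p = 8.54e-13). TXNRD1, thioredoxin reductase, was higher by 0.93 (SE 0.11), with a median of 15069 against 6854, 9303 and 6247. The glutathione transferases split by their brightest probe sets: GSTM3 was higher (1.71, SE 0.20), while GSTM1 (-1.33, SE 0.11), GSTM2 (-1.37, SE 0.13) and GSTM4 (-0.65, SE 0.12) were lower. A second GSTM3 probe set differed by -0.06, so the rise of GSTM3 rests on the brighter one. The GSTM neighbours share sequence, so their probe sets may share signal. NQO1 was higher than the mean of the others (0.77, SE 0.16, limma adjusted p = 0.000212), but 8226/S was at the same level, a difference of -0.09 that was not called. Of 13 genes of metallothioneins and metal handling, 1 was higher and 6 (46.2%) lower, against 23.8% lower over all genes, with a median of -0.30. MT1G was apart (-1.25, SE 0.20), while MT2A (-0.30, SE 0.26, adjusted p = 0.361) and heme oxygenase 1, HMOX1 (-0.48, SE 0.33, adjusted p = 0.258), were not called by limma. The HMOX1 average covers labels that differ: -1.28 and -1.35 at the 2 controls, and 0.81 and -1.44 at 6 and 24 h of DAR. At 6, 24 and 48 h of ATO it was -0.09, -0.24 and 0.25. Untreated HMOX1 signals were 832 and 587 in KMS11 and 664 and 513 in MM.1s. They were 2535 and 1992 in U266 and 5078 and 3517 in 8226/S.

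Whether differences between KMS11 and the other lines changed with treatment was tested with 2 untreated and 5 treated arrays a line, and the size of change this could detect was not tested. A term for treated against untreated labels, within the same limma fit, called 3 genes (0.0202%), with 836 at an unadjusted p under 0.05. IGLC1 was 3203 and 4077 in the untreated KMS11 arrays and 478 to 2265 in the treated, and its difference from the other lines was lower by -1.62 (SE 0.29, adjusted p = 0.0446) under treatment. The term was -1.34 (SE 0.22, adjusted p = 0.0181) for GUSBP11, a pseudogene on the same chromosome read by a cross-hybridising probe set, and -1.14 (SE 0.18, adjusted p = 0.0181) for ZNF511. Both were named after their values were seen. The arrays also fall into 2 sets by their overall signal, which the labels do not give: Control 1 and the DAR arrays, with KMS11 medians of 65.5 to 78.1, and Control 2 and the ATO arrays, with 118 to 144. A term for this set called 121 genes (0.814%), among them HGF, CD53, CCR2, IGLL5 and PSMB9. Each set holds every line, so the difference between lines could be taken within it: 665 genes were apart and higher and 625 lower in the first set, and 649 and 697 in the second. Among treated arrays set and agent cannot be told apart, since all DAR arrays lie in 1 set and all ATO arrays in the other. The 2 untreated controls differ in set without an agent, with 1 array of each line at each. From Control 1 to Control 2 the difference moved from -5.73 to -4.03 for CD53, -6.61 to -4.10 for CCR2 and -8.03 to -5.35 for IGLL5. For HGF it moved from 5.60 to 4.54 and for PSMB9 from -0.03 to -0.86. The shift between the controls alone was not tested.

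Genes apart in KMS11 were unevenly spread over the chromosomes. On chromosome 5, 104 of 683 tested genes (15.2%) were lower and 3.37% higher, against 5.99% and 5.95% over all autosomes. Chromosome 2 followed with 12.3% of 1015 lower and chromosome 3 with 10.6% of 880. Named genes that were lower there include ERAP2, TNIP1 and NSD1 on chromosome 5, MCM6, RRM2, BUB1, IFIH1, SPRED2 and BCL2L11 on chromosome 2, and CCR2, ETV5, XPC, CD86 and SETD2 on chromosome 3. More genes were higher on chromosome 18, 12.5% of 232 against 2.16% lower, and on chromosome 13, 10.2% of 283 against 1.77%. Chromosomes 10 and 12 had 9.77% of 614 and 9.67% of 827 higher. Chromosome 20 was high on both sides, with 10.2% of 442 higher and 8.37% lower. These shares are a description with no test, since neighbouring genes are not independent.

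**Figure D5:**
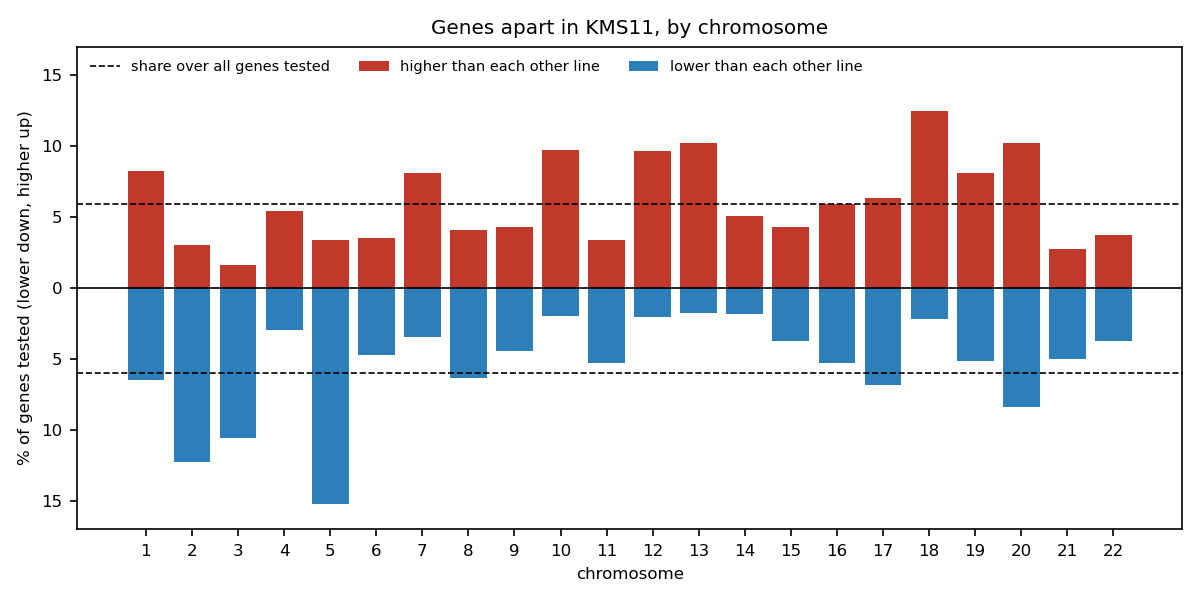
The share of tested genes apart in KMS11 is drawn for each autosome, in percent, with genes higher than each other line above the axis and genes lower below it, and dashed lines at the shares over all genes (5.95% and 5.99%). Chromosome 5 reaches 15.2% lower and chromosome 18 12.5% higher.

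HOX and TALE factors had 3 higher and 1 lower of 18. The shares over all genes were 22.6% higher and 23.8% lower. Of 6 myeloid markers tested 2 were lower, of 12 stromal markers 1 was higher and 3 lower, and of 9 epithelial markers 2 were higher and 2 lower. Of 4 erythroid markers limma called 0, and 0 had an unadjusted p under 0.05. Below the array median on all KMS11 arrays were 4 of 11 myeloid markers (CD14, LYZ, TYROBP and ELANE), 3 of 7 erythroid, 5 of 15 stromal and 1 of 11 epithelial markers. The summed signal of the stromal markers was 2200 to 6222 in KMS11, 2432 to 4239 in U266, 1659 to 4568 in MM.1s and 11370 to 32430 in 8226/S.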

How the data were processed

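RNA of 4 cell lines was measured on 28 arrays. The authors deposited intensity values made with GCOS, per the submitters' processing notes, without a stated version. Each array has a 2%-trimmed mean near 500 in these values, and no further scaling was applied. No source used here names a genome build for the probe sets.

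Of 54675 probe sets, 41097 had 1 gene symbol in the platform annotation, 1801 several and 11777 none. Entrez identifiers linked 41043 to current symbols in a RefSeq table (GRCh38.p14), which was used for names, chromosome numbers and promoter sequences. A gene was read from its brightest probe set over the 28 arrays. Of 18987 autosomal genes, 14863 above the array median on at least 4 arrays were tested. Log2 of the intensity plus 29, about the 25th percentile, was fitted with limma 3.58.1 in R 4.3.3 (lmFit, eBayes with trend, 18 residual degrees of freedom). Terms were cell line and the 7 labels as a block, and the Benjamini-Hochberg adjustment ran over all genes tested. Pairing by label rests on the shared treatment, time and control number. It was checked on the numbered controls, whose difference correlated between lines at 0.534 to 0.658 in all 6 pairs of lines. A second fit added KMS11 by treatment and KMS11 by array set. Values of 1 label in 1 line come from 1 array, and the number of arrays limits their precision.

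KMS11, the 27 gene lists and the tests were chosen with earlier results of these data known. The genes named are the 12 largest differences each way among genes apart with 1 sign in 21 matched comparisons, list members apart, and a short list of myeloma and arsenic genes. Alternatives were the offset, the filter, quantile normalization, median centring, the mean of probe sets, the block, each array set, untreated arrays, and leaving out labels or lines. The steps were tested on simulated data of 14863 genes for KMS11 against 3 equal lines: changes of 0.5, 1 and 2 log2 units were called for 55.2%, 85.1% and 100% of genes, with 6 false calls, and found apart for 25.4%, 65.7% and 100%, with 0 false.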

Additional observations from a re-analysis of the deposited data

Results flagged for a closer look

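Of the 110 genes named by rule, 6 had a difference between KMS11 and the other lines that itself depended on the array set (5 genes) or on treatment (1 gene) by limma's interaction test. Over all genes these terms called 121 and 3. Between the array sets (Control 2 and ATO minus Control 1 and DAR), the difference of HGF moved by -1.64 (limma adjusted p = 0.0489). HGF exceeded the other lines by 5.60 at Control 1 and by 5.26 and 5.03 at 6 and 24 h of DAR. It did so by 4.54 at Control 2 and by 3.08 to 3.44 on the ATO arrays of the same set. The fit has 1 treatment term for both agents, so a change under ATO alone also enters the set term. Such a change was not tested. For 3 genes that were low in KMS11, the gap narrowed in the second set: CCR2 by 2.92 (adjusted p = 4.15e-05), IGLL5 by 2.26 (adjusted p = 0.00210) and CD53 by 1.70 (adjusted p = 4.86e-05). CCR2 in KMS11 was 2.71 to 17.7 in the first set and 43.2 to 190 in the second. CD53 was 50.6 to 114 and 276 to 458. The array medians of KMS11 differed between the same sets, 65.5 to 78.1 against 118 to 144, and their part in these values was not tested. PSMB9 moved by -0.94 (adjusted p = 0.0415), from -0.18 to 0.19 in the first set to -1.24 to -0.77 in the second.

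IGLC1 in KMS11 was lower under treatment relative to the other lines by a term of -1.62 (limma adjusted p = 0.0446), with the untreated arrays at 3203 and 4077 and the lowest, ATO at 48 h, at 478.

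Among 110 named genes, 2 had a single label far from the other 6, where chance gives about 1 in 20. SLBP was higher in KMS11 at Control 2 alone (0.20), with -0.57 to -0.27 at the other labels. NICOL1 exceeded the other lines by 1.44 at DAR 24 h and by 0.97 to 1.14 at the others.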

How the results depend on the processing

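Genes apart numbered 884 higher and 891 lower. Without the label block they were 690 and 655, and genes called against the mean of the lines 2912 higher and 2958 lower. Leaving out control replicate 1 or 2 gave 780 to 787 higher and 775 to 791 lower apart, and 3129 to 3131 higher and 3196 to 3208 lower against the mean. In the untreated arrays alone, 338 higher and 341 lower were apart, and 1830 and 1771 called against the mean. With a minimum of 1 log2 unit these were 186 and 184 apart, and 763 and 857 against the mean. With line means as the unit limma called 0 in either direction, with 411 genes at an unadjusted p under 0.05. With fewer lines to differ from, more genes were apart: 1484 higher and 1540 lower without U266, 1596 and 1505 without MM.1s, and 1565 and 1600 without 8226/S. Quantile normalization gave 78 genes for the array set term in place of 121. Offsets of 1 and 100, no filter, quantile normalization, median centring and the mean of probe sets kept the counts apart and those against the mean, in each direction, within 1.5 times. The median difference over all genes moved from -0.06 to -0.00 under median centring.

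Signs turned for genes between the lines. Without U266, MAF was -1.53, CCND1 0.092, CCND3 -0.19 and ITGB7 -0.52. Without 8226/S, TRAF3 was -0.55 and ZNF511 -0.20. CCND3 was -0.16 with the mean of probe sets. In the first array set alone MAF was -0.13 and MT2A 0.10. Leaving out any 1 label changed no call among the named genes that were apart. Leaving out a line changed none either, but that was largely set by the selection, since genes apart differ from each line. In the second array set alone the calls of HLA-G (0.17), NSD1 (-0.74), RRM2 (-0.41) and SLBP (-0.26) were lost. In untreated arrays those of CD3E (0.91), EZH2 (0.31) and GSTM4 (-0.70) were lost, beside those of CD24, NSD1, NUSAP1, PSMB9, SLBP and TTK. Counts of the lists were recomputed after seeing the data. Of 31 interferon genes, 18 were lower in each array set and in the untreated arrays, and 1 was higher in the second set. Over all 14863 genes, 2762, 2948 and 1771 were lower in these fits. Of 29 G2/M genes, 17 and 19 were higher and 2 and 3 lower in the array sets. In the untreated arrays 9 were higher and 4 lower, and with a minimum of 1 log2 unit 6 were higher. Over all genes, in the same order, 2688, 2849, 1830 and 763 were higher.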
